A study of Mus musculus with 24 samples.

Results

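The 40 genes described here are expressed by spiral ganglion neurons and at their synapses: neurofilaments and other axonal proteins, the vesicle release machinery, calcium-binding proteins, sodium channels, glutamate receptors, and transcription factors and RNA-binding proteins of neurons. They were taken by symbol from a list of known genes of these neurons, drawn up with earlier results of these data known; no measured value enters the rule. All 40 had an entry among the 23420 entries of the deposited count table, and all 40 passed the filter on low counts that left 16607 genes for testing. RNA was sequenced from 24 libraries of whole cochlea of CBA/Sca mice aged 12 weeks. Noise (6 to 12 kHz, 100 dB SPL, 1 h) was given by day at ZT3 or by night at ZT15, where ZT counts hours from lights on.

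The 8 groups of 3 libraries (a, b and c) cross 3 factors, and the question named by the series is how glucocorticoid rhythms bear on sensitivity to noise at different times. By day there were noise-exposed and sham-exposed mice, each either adrenalectomized (ADX, without the adrenal glands that make corticosterone) or sham-operated, and by night there were the same 4 combinations. Sham-exposed mice are called unexposed below. Every mouse therefore had an operation, and no group was left without surgery. The series design places collection 2 hours after the noise, whereas the sample labels carry ZT11 for day and ZT23 for night groups, so the hour of collection is not settled here. The labels do not say whether the 3 libraries of a group came from separate animals, so p-values measure the spread between these libraries, which may be technical.

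Spiral ganglion neurons carry sound information from hair cells to the brainstem. Inner hair cells release glutamate onto their peripheral endings, where AMPA-type receptors receive it, and their central endings release glutamate in turn after loading it into vesicles with a vesicular glutamate transporter. Most are large myelinated cells that contact inner hair cells, and a minority are small cells that contact outer hair cells and contain peripherin (Prph). Noise can damage the contacts between hair cells and neurons while the cell bodies survive. In whole cochlea, fewer neurons and less RNA per neuron cannot be told apart.

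Totals ran from 18894996 to 36108962 counts per library, and the 40 genes together took 0.382% to 0.602% of them. Some libraries stood apart by genes of other tissue. Of 10 genes of cerebellar neurons, 8 had their 2 highest values in sham-operated libraries day unexposed b and night noise b (Fat2 and Zic4 did not), and the summed level was 269 and 217 CPM there (CPM are counts scaled to the normalised total of a library) against 74.6 to 135 in the other 22 libraries. Gabra6 (a receptor subunit of cerebellar granule cells) and Pcp2 (a protein of Purkinje cells) were each at 0 in at least 1 other library. Night noise ADX a held transcripts of 6 pituitary hormone genes at a summed 9849.5 CPM. Night noise ADX c held 137 CPM of them, and the next highest was day noise sham-operated b at 48.3 CPM. Another set of 10 genes, Scn10a and P2rx3 among them, was taken to mark sensory neurons of other cranial ganglia. The list was drawn up after the data were seen, and the source of these transcripts was not tested. P2rx3 and Avil were at no less than 2.92 and 4.90 CPM in any library. The 10 genes summed to between 29.9 and 82.2 CPM in 7 libraries and to between 11.3 and 22.2 CPM in the other 17. The 7 were day noise ADX b and c, night noise sham-operated b and c, night unexposed sham-operated b and c, and day unexposed ADX a.

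The members spanned a wide range of levels. Per kilobase of exon, Calb2 (calretinin, a calcium buffer) was highest at 297 ± 39.5 CPM per kb (SD over 24 libraries), and Nefh (the heavy neurofilament) followed at 158 ± 20.1. Pvalb (parvalbumin, a calcium buffer) at 116 ± 17.0, Nefl (the light neurofilament) at 104 ± 14.9, Stmn3 (a microtubule regulator) at 99.8 ± 11.9, Nefm (the medium neurofilament) at 83.3 ± 12.5 and Snap25 (a SNARE protein that drives vesicle fusion) at 69.2 ± 9.47 followed in that order. Each of these last 5 overlapped its neighbour within 1 SD, whereas Calb2, Nefh and Pvalb did not overlap each other. The lowest were Gria2 (an AMPA receptor subunit) at 1.33 ± 0.316, Chl1 (an adhesion protein) at 0.561 ± 0.142 and Scn9a (a sodium channel of pain-sensing neurons) at 0.132 ± 0.117 CPM per kb. Slc17a7 (VGLUT1, a vesicular glutamate transporter) lay at 26.8 ± 3.72 CPM per kb and its relative Slc17a6 (VGLUT2) at 5.70 ± 1.37.

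Most members varied little: the ratio of the highest to the lowest library was below 3 for all but Prph, Scn9a, Gap43 and Syt1, at 14.1, 17.5, 7.04 and 5.14. Gria3 (an AMPA receptor subunit) varied least, 1.38 times. Counts behind the lowest levels were small, with 7 reads for Scn9a and 20 for Gap43 (a growth cone protein) in their lowest libraries, against 9052 for Calb2. The heatmap of members by library sets each member against its own mean.

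**Figure D1:**
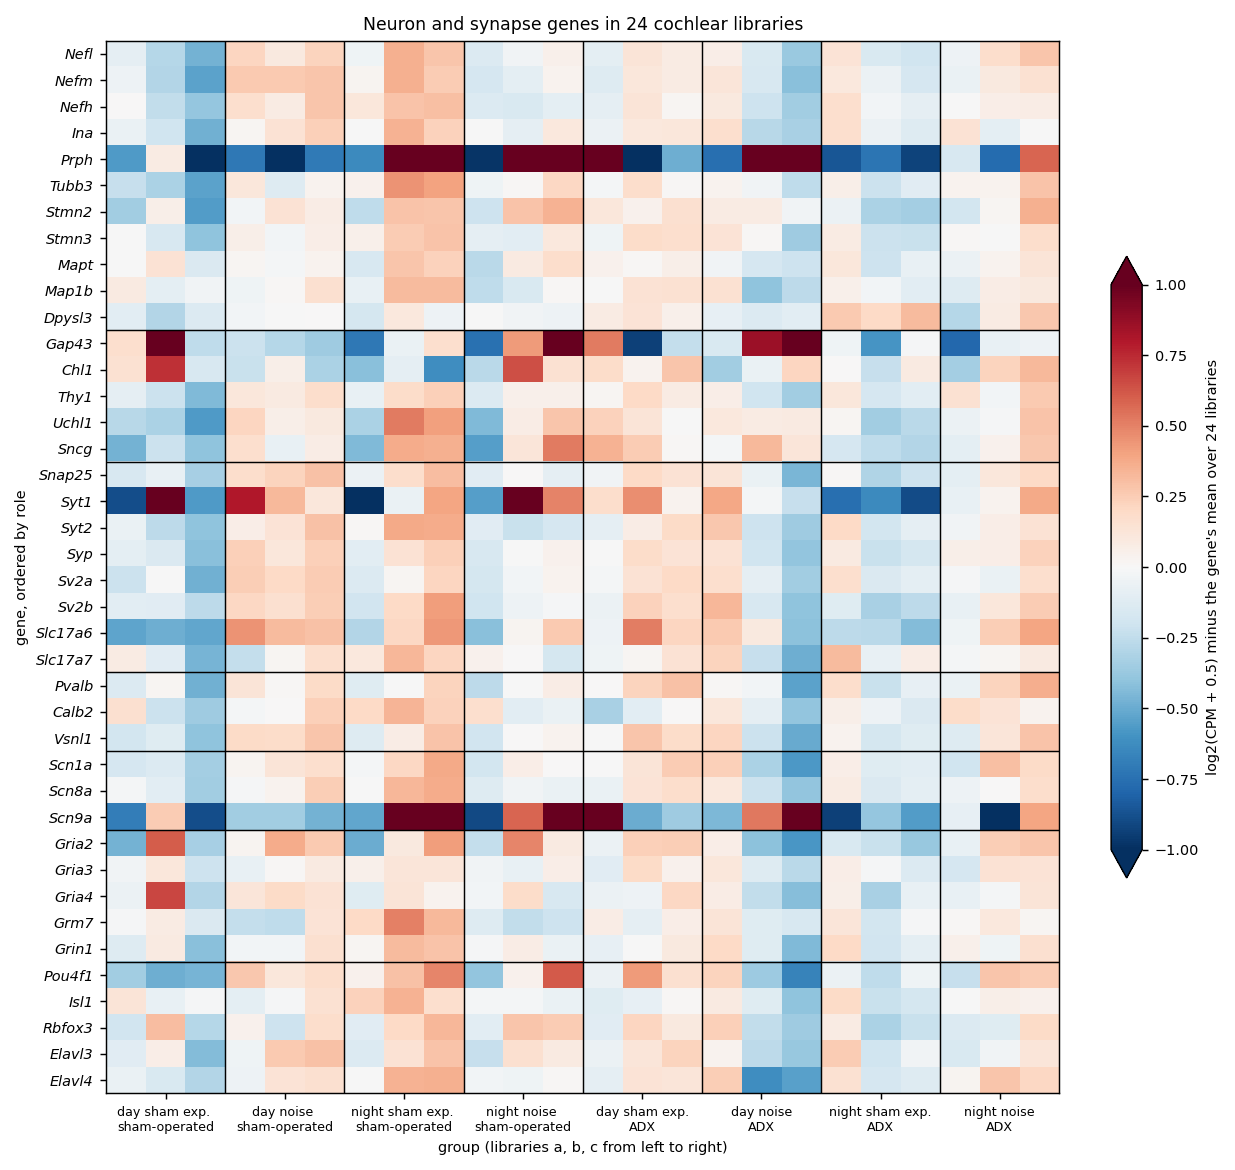
Each row is a gene, grouped by role, and each column a library; colour is log2(CPM + 0.5) minus the mean of that gene over 24 libraries, capped at 1 in either direction. Day unexposed sham-operated c and day noise ADX c are blue for most genes, night unexposed sham-operated b and c are red for most, and Prph, Gap43, Syt1 and Scn9a follow patterns of their own.

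Promoter sequence was available for 29 of the 40 members, as the 250 bases before and 50 bases after the transcription start in RefSeq (GRCm38.p6). Bases upstream of both the RefSeq and the GENCODE start are shown for Tubb3, the member that passed the test between night and day, for Grin1, whose upstream bases hold the circadian E-box CACGTG, and for Prph, one of the most variable members. Tubb3 lies on the + strand at chr8:123411303-123411423, Grin1 on the - strand at chr2:25319188-25319437 and Prph on the + strand at chr15:99054924-99055173. Capitals mark 2 copies of CACGTG and, between them, CTGTCC, the reverse complement of GGACAG, 1 side of the site of the neuronal repressor REST.
Tubb3: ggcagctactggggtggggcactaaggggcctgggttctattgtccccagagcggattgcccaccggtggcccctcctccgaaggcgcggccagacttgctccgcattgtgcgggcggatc
Grin1: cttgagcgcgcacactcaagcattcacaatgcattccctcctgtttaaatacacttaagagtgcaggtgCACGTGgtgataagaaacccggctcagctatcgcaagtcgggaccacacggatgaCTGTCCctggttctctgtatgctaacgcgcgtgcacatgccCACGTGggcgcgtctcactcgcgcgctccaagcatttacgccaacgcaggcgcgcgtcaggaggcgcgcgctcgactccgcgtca
Prph: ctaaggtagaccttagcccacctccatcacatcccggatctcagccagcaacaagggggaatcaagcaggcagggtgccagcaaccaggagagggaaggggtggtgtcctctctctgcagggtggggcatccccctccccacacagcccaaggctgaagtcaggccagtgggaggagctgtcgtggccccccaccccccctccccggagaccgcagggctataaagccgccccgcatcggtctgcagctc
Searched on both strands of the 300-base promoters, CACGTG was in 2 of the 29 members (Grin1 and Sv2b), against 8.09% of 27025 genes. The left and right sides of the REST site, CAGCACC and GGACAG, were in 3 and 12 of the 29 members, against 8.14% and 24.7% of genes, and GNACANNNTGTNC, the glucocorticoid response element, was in 0 of the 29, against 0.537%. The 3 were Map1b, Pvalb and Tubb3, and Pvalb and Tubb3 were also among the 12. The bases shown for Tubb3 end before its match to the left side, which lies 121 bases before the RefSeq start. A match is a description of the letters only, and the marked motifs do not overlap one another.

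Across the 24 libraries the levels of most members varied together. The correlation of a member with the mean of the other 39 was highest for Stmn2 (a microtubule regulator of axons, r = 0.913), Uchl1 (a ubiquitin hydrolase of neurons, r = 0.881) and Mapt (tau, r = 0.856). It was lowest for Chl1 (r = 0.0494), Gap43 (r = 0.0935) and Dpysl3 (an axon guidance protein, r = 0.156). These are descriptions over libraries that share tissue and depth. Among pairs, Nefl and Nefm had r = 0.961, Snap25 and Syp (synaptophysin, a vesicle membrane protein) r = 0.93, and Slc17a6 and Pou4f1 (a transcription factor of sensory neurons) r = 0.833, whereas Slc17a6 and Slc17a7 had r = 0.295. Nefl and Nefm overlap in their exons on opposite strands, and whether counting used the strand is not given in the sources used here, so reads of either could have been shared; Ina and Sv2b likewise share exon sequence with another gene. The 5 genes outside the list most like the mean of the 40 were Kif5a (r = 0.916), Ctnna2 (0.902), Sult4a1 (0.892), Elavl2 (0.891) and Rusc1 (0.877).

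The mean of the 40 members, as log2 CPM centred on each gene, ran from -0.41 in day unexposed sham-operated c to 0.34 in night unexposed sham-operated b. By group it was -0.19 ± 0.21 (SD, n = 3) in day unexposed sham-operated mice, 0.06 ± 0.05 after day noise, 0.17 ± 0.28 in night unexposed sham-operated mice and 0.03 ± 0.23 after night noise. In ADX mice it was 0.08 ± 0.01 by day unexposed, -0.06 ± 0.13 after day noise, -0.14 ± 0.12 by night unexposed and 0.05 ± 0.15 after night noise. Night unexposed sham-operated mice had the highest group mean for 21 members, and day unexposed sham-operated mice the lowest for 22.

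Genes of the Schwann cells that myelinate these axons moved with the members. The 6 Schwann cell genes were Pmp22, Prx, Mpzl1, Egr2, Drp2 and Ncmap. Their mean correlated with the mean of the 40 members over 24 libraries with r = 0.71 and rho = 0.719. The value was r = 0.65 without the 2 farthest libraries and r = 0.692 for deviations from group means. The summed level of the 6 genes was 754 to 786 CPM in day unexposed sham-operated mice and 857 to 973 CPM after day noise. It was 737 to 986 CPM in night unexposed and 761 to 975 CPM in night noise sham-operated mice. In ADX mice it was 944 to 1075 CPM by day unexposed, 652 to 939 after day noise, 845 to 907 by night unexposed and 879 to 1011 after night noise. For hair cell genes r was 0.341, and 0.227 for deviations from group means. For cerebellar genes these values were 0.14 and 0.547. The part of nerve or Schwann cell content in the results below was not tested.

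**Figure D2:**
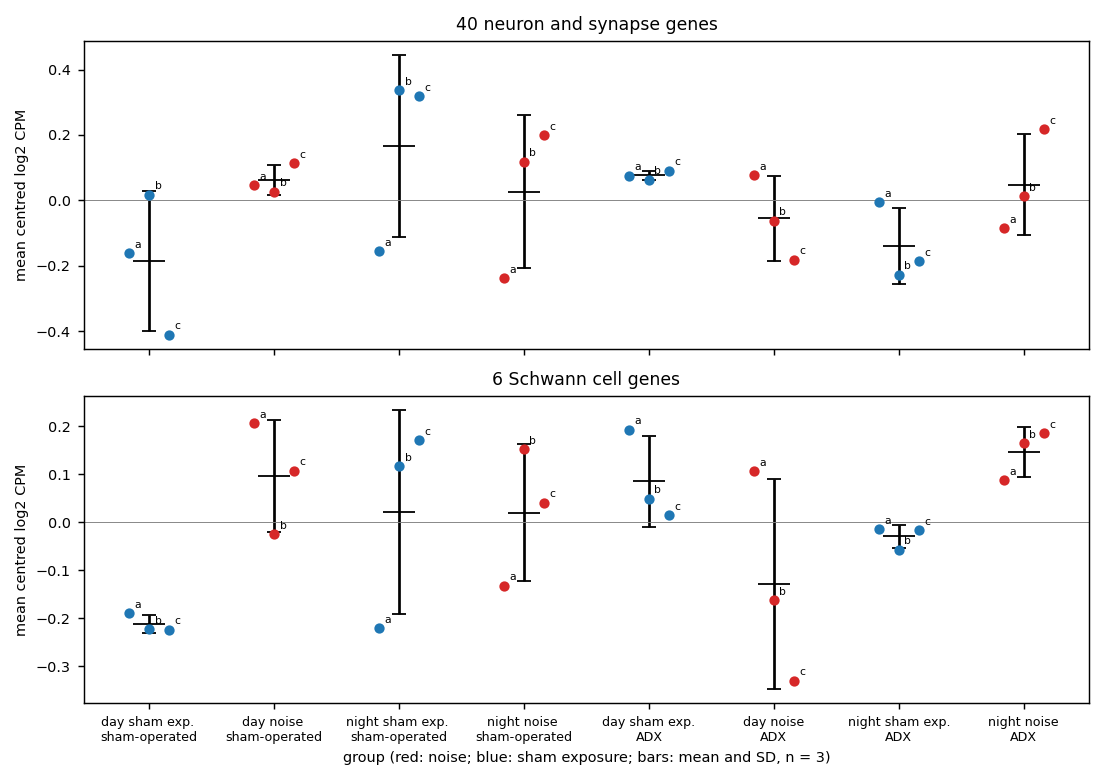
Mean centred log2 CPM of the 40 members (top) and of 6 Schwann cell genes (bottom) in each library, lettered a to c, with the group mean and SD (n = 3). In both panels all 3 day unexposed sham-operated libraries lie at or below 0.02, and the night sham-operated groups spread widely (SD 0.28 unexposed and 0.23 after noise for the members).

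The first comparison asked whether the time of day alone changed these genes in sham-operated, unexposed mice. Of the 40 members 36 lay above zero at night, with a median log2 change of 0.37 against -0.01 over all 16607 genes. Tubb3, the neuronal tubulin, passed the threshold of an adjusted p of 0.05 in edgeR's quasi-likelihood test with Benjamini-Hochberg adjustment, which 0.265% of all genes did. At an unadjusted p under 0.05 the count was 28, against 11.2% of all genes. DESeq2 called 7 (Nefl, Nefm, Nefh, Tubb3, Syt2, Uchl1 and Slc17a6), against 1.27%. All 3 night libraries lay above all 3 day libraries for 18 members, against 8.4% of all genes, and in the opposite order for 0, against 7.07%.

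Tubb3 was at 79.0, 74.4 and 63.9 CPM by day and at 95.5, 127 and 123 CPM by night in unexposed sham-operated libraries a, b and c. All 3 night values lay above all day values, and the day group was the lowest of the 8 groups. The log2 change was 0.67 (SE 0.11, 1.59-fold, adjusted p = 0.0141 in edgeR). The adjusted p was 0.0821 without night library b, 0.0926 without night library c and 0.068 without day library c, and without both night b and c the log2 change was 0.40 (adjusted p = 0.99). Tubb3 is the gene for the tubulin found in neurons, at chr8:123411424-123422015 on the + strand (GRCm38).

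Nefl was at 326, 285 and 249 CPM by day and at 336, 442 and 421 CPM by night, so that the groups did not overlap but night library a was close to the highest day library. Its log2 change was 0.48 (SE 0.12, adjusted p = 0.121 in edgeR), and that of Nefh was 0.44 (SE 0.10, adjusted p = 0.0789). All 11 members of the axonal cytoskeleton were above zero, with a median of 0.44. Map1b (a microtubule-associated protein) was at 684, 601 and 628 CPM by day and 613, 803 and 800 CPM by night, and these groups overlapped, as did those of Prph, at 1.73 to 4.67 CPM by day and 2.64 to 21.8 CPM by night.

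Among synaptic members, 7 of 8 release and glutamate loading genes were above zero at night, with a median of 0.33. Slc17a6 was at 20.6, 21.1 and 20.7 CPM by day, the tightest group, and at 24.3, 34.6 and 40.6 CPM by night (log2 change 0.67, SE 0.20, adjusted p = 0.161). Syt2 (synaptotagmin 2, the calcium sensor of fast release) was at 82.9, 72.1 and 65.6 CPM by day and 87.5, 113 and 112 CPM by night, which did not overlap. Snap25 was at 416, 442 and 371 CPM by day and 447, 525 and 578 CPM by night, again without overlap but with night library a close to the highest day library. Pvalb overlapped, at 109, 120 and 85.1 CPM by day and 109, 119 and 139 CPM by night. Night library a lay nearest to the day values for Nefl, Snap25, Slc17a6 and Syt2.

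Receptors gave the smallest median among the roles in this comparison, 0.14, with 4 of 5 above zero. Grm7 (a presynaptic metabotropic glutamate receptor) was at 8.41, 8.99 and 7.62 CPM by day and 9.82, 12.2 and 10.7 CPM by night, without overlap (log2 change 0.39, SE 0.12, adjusted p = 0.185). Gria2 was at 14.4, 30.9 and 16 CPM by day and 14.2, 21.7 and 27.2 CPM by night, with its highest value in day library b, a library that held cerebellar transcripts. Grin1 (the obligatory NMDA receptor subunit) was at 49.3, 57.3 and 40.2 CPM by day and 54.6, 67.3 and 65.8 CPM by night, which overlapped.

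Leaving out 1 library at a time, the median was lowest, at 0.27, without day library c, where the log2 change of Tubb3 was 0.58. Without night libraries b and c together the median of the 40 members was 0.11, with night library a taken to vary as the other groups did. These 2 libraries held 52.2 and 51.5 CPM of the genes of other sensory neurons, against 14.0 CPM in night library a and 11.5 to 20.6 CPM by day. Both are among the 7 libraries richest in those genes, and none of the 3 day libraries is, so leaving out the 7 leaves the same 4 libraries in this comparison. The 6 Schwann cell genes had a median log2 change of 0.24, with 5 above zero; their mean centred log2 CPM was -0.19, -0.22 and -0.22 by day and -0.22, 0.12 and 0.17 by night, so that it too was high in libraries b and c. Without the 2 libraries that held cerebellar transcripts the median was 0.40, and Tubb3 still passed (log2 change 0.68, adjusted p = 0.0487).

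The same comparison in unexposed ADX mice had the opposite sign for most members. Of 40, 36 lay below zero, with a median log2 change of -0.14, and none passed the edgeR test, which 0.0181% of all genes did. The median was -0.24 without night library a and -0.09 without night library b. At an unadjusted p under 0.05 the count was 5, against 6.25% of all genes, and DESeq2 called 0, against 0.205%. The groups did not overlap for 6 members that were lower at night (Stmn2, Sncg, Syt1, Sv2b, Slc17a6 and Gria2), against 8.39% of all genes, and for 1 that was higher (Dpysl3), against 7.77%. Slc17a6 was at 28.9, 43.0 and 34.9 CPM by day and 24.8, 24.7 and 22 CPM by night (log2 change -0.58, SE 0.19, adjusted p = 0.625). Tubb3 was at 91.8, 105 and 93.4 CPM by day and 96.6, 79.9 and 85.8 CPM by night, and these groups overlapped. Syt1 (synaptotagmin 1, a calcium sensor of release) was at 17.2, 21.1 and 15.6 CPM by day and 8.79, 9.57 and 7.95 CPM by night.

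The difference between the time effects of ADX and sham-operated mice, a test added after the data were seen, called no member in edgeR, against 0.00602% of all genes. The median over the 40 was -0.52, 36 lay below zero and 24 had an unadjusted p under 0.05, against 6.27% of all genes; DESeq2 called 2, against 0.0784%. Tubb3 had the smallest p, with a difference of -0.81 (adjusted p = 0.245).

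Noise by day in sham-operated mice used the same low day group as its control. Of the 40 members 34 lay above zero after noise, with a median log2 change of 0.28 against -0.01 over all genes. None passed the edgeR test, which 0.247% of all genes did. At an unadjusted p under 0.05 the count was 16, against 8.31%, and DESeq2 called 4 (Nefl, Nefm, Nefh and Slc17a6), against 0.756%. The noise group lay wholly above the unexposed group for 20 members, against 8.19% of all genes, and wholly below for 0, against 5.82%.

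Slc17a6 had the largest log2 change by day. It was at 20.6, 21.1 and 20.7 CPM in unexposed and at 41.1, 37.4 and 36.9 CPM in noise-exposed libraries, so that every noise value was far above every control value. The log2 change was 0.89 (SE 0.20, adjusted p = 0.0691 in edgeR), and in a fit of only these 2 groups it passed (adjusted p = 0.0061). Nefm was at 460, 388 and 329 CPM without and 571, 571 and 579 CPM with noise (log2 change 0.55, SE 0.13, adjusted p = 0.0748). Nefl was at 403, 370 and 404 CPM with noise, all above the unexposed values given above (log2 change 0.45, SE 0.12, adjusted p = 0.202). Tubb3 was at 101, 84.7 and 95.2 CPM with noise, Snap25 at 525, 542 and 571 CPM and Syt2 at 90.7, 95.1 and 106 CPM, and none of these groups overlapped its control.

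All 8 release and glutamate loading genes lay above zero, with a median of 0.41, and 10 of 11 axonal cytoskeleton genes, with a median of 0.33. Receptors stood near zero, with a median of 0.05. Calb2 overlapped, at 575, 443 and 401 CPM without and 506, 515 and 606 CPM with noise, as did Slc17a7, at 151, 133 and 104 CPM without and 121, 145 and 161 CPM with noise. Egr2, a transcription factor of myelinating Schwann cells, passed the test in this comparison (log2 change 0.67, adjusted p = 0.0103), and all 6 Schwann cell genes lay above zero, with a median of 0.31. In ADX mice Egr2 had a log2 change of 0.30 after day noise (adjusted p = 0.137 in edgeR). The other 5 Schwann cell genes lay below zero there, so Egr2 did not move with its list. Whether its rise reflects Schwann cell content was not tested. For day noise in sham-operated mice the median of the members was 0.19 without unexposed library c. Without the 2 libraries that held cerebellar transcripts it was 0.38.

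At night in sham-operated mice 34 of 40 members lay below zero after noise, with a median log2 change of -0.20 against 0.00 over all genes. The median was -0.08 without noise library a, -0.13 without unexposed b and -0.12 without unexposed c. Grm7 passed the edgeR test as lower, against 0.717% of all genes called in either direction. At an unadjusted p under 0.05 the count was 9, against 8.41%, and DESeq2 called 2 (Grm7 and Nefh), against 1.26%. The groups did not overlap for 7 members, all lower after noise (Nefh, Syt2, Slc17a7, Calb2, Scn8a, Grm7 and Isl1), against 6.67% of all genes lower and 6.91% higher.

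Grm7 was at 9.82, 12.2 and 10.7 CPM in unexposed and at 7.70, 7.06 and 7.28 CPM in noise-exposed libraries. The 3 unexposed values lay above those of all other libraries, and the noise values were among the lower ones. The log2 change was -0.57 (SE 0.12, adjusted p = 0.0231). It passed in 1 of 6 fits that left out 1 of these libraries, with an adjusted p of 0.188 without unexposed b, 0.147 without noise b, 0.0815 without noise c, 0.0695 without unexposed c and 0.0568 without noise a. Without the 2 libraries that held cerebellar transcripts the log2 change was -0.54 (adjusted p = 0.145). Grm7 lies at chr6:110645581-111567230 on the + strand (GRCm38).

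Calb2 was at 591, 651 and 604 CPM without and 576, 479 and 491 CPM with noise at night, Scn8a (the sodium channel of nodes and initial segments) at 109, 138 and 141 CPM without and 99.8, 107 and 104 CPM with noise, and Slc17a7 at 154, 181 and 166 CPM without and 148, 143 and 127 CPM with noise. In each of these 3 genes the noise group lay wholly below the unexposed group, with noise library a or b close to unexposed library a. Nefl was at 315, 338 and 359 CPM and Snap25 at 431, 468 and 439 CPM with noise, and both overlapped the unexposed values. Without unexposed libraries b and c the median of the members turned to 0.07, so that the sign at night rests on those 2 libraries; the 6 Schwann cell genes had a median of 0.03.

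The difference between the noise effects at night and by day was tested directly. In sham-operated mice 36 of 40 members lay below zero, with a median of -0.46, and edgeR called 0 members, as it did for 0% of all genes. At an unadjusted p under 0.05 the count was 23, against 7.3%, and DESeq2 called 3 (Nefh, Nefm and Syt2), against 0.0945%. Nefh had the smallest p, with a difference of -0.75 (SE 0.15, adjusted p = 0.192 in edgeR). Both noise comparisons use the unexposed groups, whose libraries day c and night b and c are the extremes of the member mean.

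**Figure D3:**
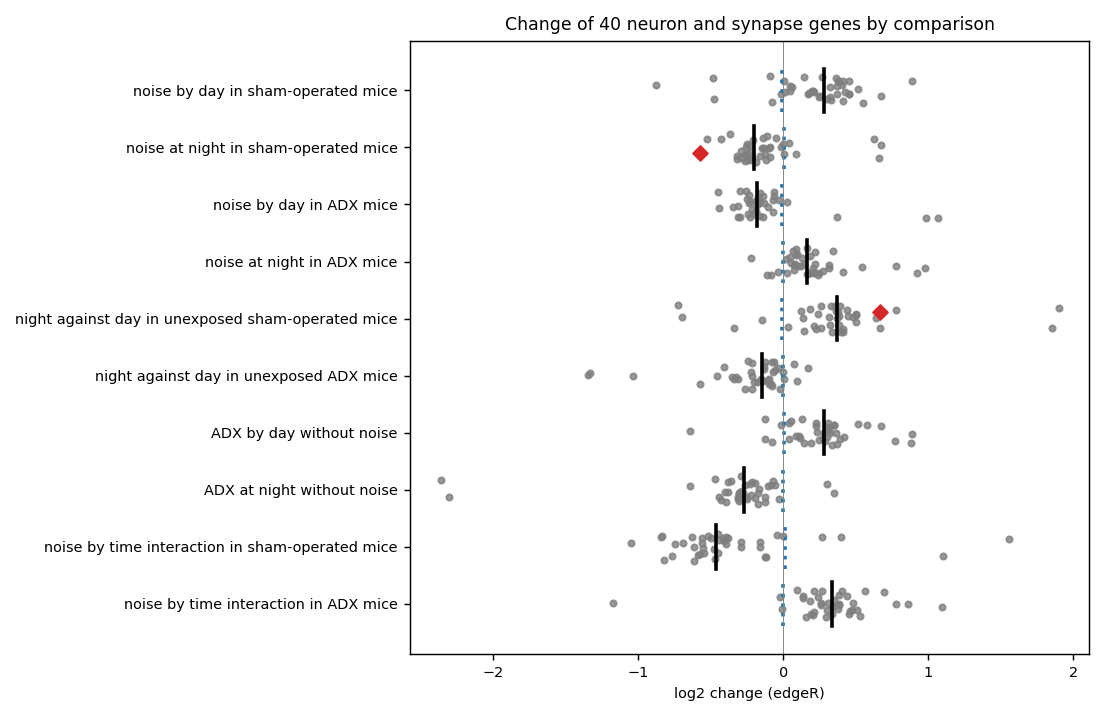
Each grey point is the log2 change of 1 of the 40 members in the comparison named at the left, from edgeR; red diamonds (Grm7 and Tubb3) passed an adjusted p of 0.05, black bars are the members' median and dotted blue bars the median of all 16607 genes. The medians are 0.28 and -0.20 for noise by day and at night in sham-operated mice and -0.18 and 0.16 in ADX mice; comparisons share groups and are not independent.

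In ADX mice, noise by day left 36 of 40 members below zero, with a median log2 change of -0.18, which was -0.33 without noise library a and -0.06 without noise library c. None passed the edgeR test, which 4.02% of all genes did. At an unadjusted p under 0.05 the count was 5, against 23.5%, and DESeq2 called 0, against 8.49%. The noise group lay wholly below for 2 members (Mapt and Dpysl3), against 13.7% of all genes, and wholly above for 0, against 12.2%. Elavl4 (an RNA-binding protein of neurons) was at 56.0, 65.3 and 64.6 CPM without and 70.6, 38.5 and 40.7 CPM with noise, so noise library a was the highest of the 6 and b and c the lowest. Nefl was at 323, 378 and 367 CPM without and 364, 312 and 268 CPM with noise, with libraries b and c again the lowest and library a among the unexposed values. Without noise library a, 8 members passed, all lower (Elavl4, Map1b, Pou4f1, Scn1a, Scn8a, Syp, Thy1 and Vsnl1). The share of all genes that passed in that fit is not given here, so the count does not set the members apart. Noise libraries b and c held 38.1 and 53.6 CPM of the genes of other sensory neurons, against 14.9 CPM in a, and 756 and 652 CPM of the Schwann cell genes, against 939 CPM in a. Drp2, a protein of myelinating Schwann cells, fell in this comparison (log2 change -0.47, SE 0.12, adjusted p = 0.0316).

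Noise at night in ADX mice left 36 of 40 members above zero, with a median log2 change of 0.16, which was 0.10 without noise library c and 0.25 without unexposed library a. Noise library a is the library that held the most pituitary transcripts, and without it the median was 0.19. Noise library c held the second most, at 137 CPM. None passed the edgeR test, which 0.5% of all genes did; 3 had an unadjusted p under 0.05, against 10.2%, and DESeq2 called 0, against 1.12%. The noise group lay wholly above for 5 members (Sncg, Syt1, Sv2b, Slc17a6 and Gria2), against 6.83% of all genes, and wholly below for 0, against 7.68%. Slc17a6 was at 24.8, 24.7 and 22 CPM without and 29.1, 35.6 and 39.4 CPM with noise (log2 change 0.54, SE 0.19, adjusted p = 0.304). Syt1 was at 14.4, 15.6 and 19.9 CPM with noise, above its 3 unexposed values, and passed in a fit of only these 2 groups (log2 change 0.93, adjusted p = 0.0211). In the interaction of noise and time in ADX mice 37 members lay above zero, with a median of 0.34; edgeR called 0, against 0.00602% of all genes, 13 had an unadjusted p under 0.05, against 11.7%, and DESeq2 called 0, against 0.139%.

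Adrenalectomy itself was compared in unexposed mice. By day 35 of 40 members lay above zero in ADX mice, with a median log2 change of 0.28. None passed the edgeR test, which 0.0422% of all genes did; 20 had an unadjusted p under 0.05, against 11.3%, and DESeq2 called 2 (Slc17a6 and Tubb3), against 1.08%. The ADX group lay wholly above for 13 members, against 10.1% of all genes, and wholly below for 0, against 8.83%. Slc17a6 again had the smallest p, at 20.6, 21.1 and 20.7 CPM in sham-operated and 28.9, 43.0 and 34.9 CPM in ADX mice (log2 change 0.77, SE 0.20, adjusted p = 0.126). Tubb3 was at 91.8, 105 and 93.4 CPM in ADX mice, above all 3 sham-operated values (log2 change 0.42, SE 0.11, adjusted p = 0.149). The 6 Schwann cell genes all lay above zero in this comparison, with a median of 0.30. The control was the low day unexposed sham-operated group used above. Without its library c the median of the members was 0.19, and its library b held cerebellar transcripts.

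By night 38 of 40 members lay below zero in unexposed ADX mice, with a median log2 change of -0.27. None passed the edgeR test, which 1.58% of all genes did; 16 had an unadjusted p under 0.05, against 14.9%, and DESeq2 called Tubb3, against 3.91%. The groups did not overlap for 4 members that were lower in ADX mice (Prph, Calb2, Grm7 and Pou4f1), against 10.9% of all genes, and for Dpysl3, which was higher, against 11.4%. Grm7 was at 9.24, 7.39 and 8.41 CPM in ADX mice against 9.82, 12.2 and 10.7 CPM (log2 change -0.38, SE 0.12, adjusted p = 0.117). Without night sham-operated libraries b and c the median of the members was -0.02. Of the 6 Schwann cell genes, 3 lay above and 3 below zero here.

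The remaining values of the members that stand for each role were as follows. In sham-operated mice after night noise Tubb3 was at 90.1, 93.6 and 107 CPM, Syt2 at 80.2, 74.4 and 76.9 CPM and Slc17a6 at 22.3, 30.5 and 36 CPM. Thy1, a surface glycoprotein of neurons, was at 114, 104 and 89.0 CPM in day unexposed sham-operated mice and at 131, 129 and 137 CPM after day noise, with no overlap (log2 change 0.37, SE 0.11, adjusted p = 0.274). At night it was at 115, 138 and 143 CPM without and at 110, 126 and 125 CPM with noise, which overlapped. Night unexposed library a was the lowest of its group for Thy1, as it was for Tubb3, Nefl, Snap25, Syt2 and Slc17a6.

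In ADX mice Snap25 was at 455, 535 and 516 CPM by day unexposed, 510, 446 and 339 CPM after day noise, 469, 379 and 403 CPM by night unexposed and 435, 505 and 535 CPM after night noise. Syt2 in the same order was at 81.4, 91.2 and 99.2 CPM, then 105, 74.8 and 67.5 CPM, then 99.5, 76.1 and 81.6 CPM, and last 84.5, 90.8 and 95.7 CPM. Both genes had their widest spread after day noise, where library a was high and library c low. Slc17a7 was at 139, 145 and 159 CPM by day unexposed, 167, 122 and 102 CPM after day noise, 178, 136 and 151 CPM by night unexposed and 141, 145 and 153 CPM after night noise. Pvalb in that order was at 120, 139 and 146 CPM, then 120, 117 and 82.0 CPM, then 134, 102 and 113 CPM, and last 114, 139 and 153 CPM. The ADX groups overlapped for both, and library c after day noise was again the lowest.

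Calb2 in ADX mice was at 410, 478 and 515 CPM by day unexposed, 555, 483 and 391 CPM after day noise, 536, 496 and 464 CPM by night unexposed and 583, 564 and 528 CPM after night noise. Gria2 was at 19.4, 23.9 and 24 CPM, then 21.1, 15.1 and 13.3 CPM, then 18.1, 17.2 and 15.4 CPM, and last 19.1, 24 and 24.6 CPM in these groups. Gria2 was thus lower in all 3 night unexposed libraries than in all 3 day unexposed or night noise libraries of ADX mice (log2 change between night and day -0.41, SE 0.26, adjusted p = 0.866). Scn8a was at 104, 120 and 123 CPM, then 117, 93.9 and 82.8 CPM, then 116, 98.8 and 102 CPM, and last 105, 109 and 123 CPM, and these groups overlapped. Map1b was at 644, 710 and 717 CPM by day unexposed and 716, 487 and 538 CPM after day noise, where libraries b and c were its lowest of all 24.

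**Figure D4:**
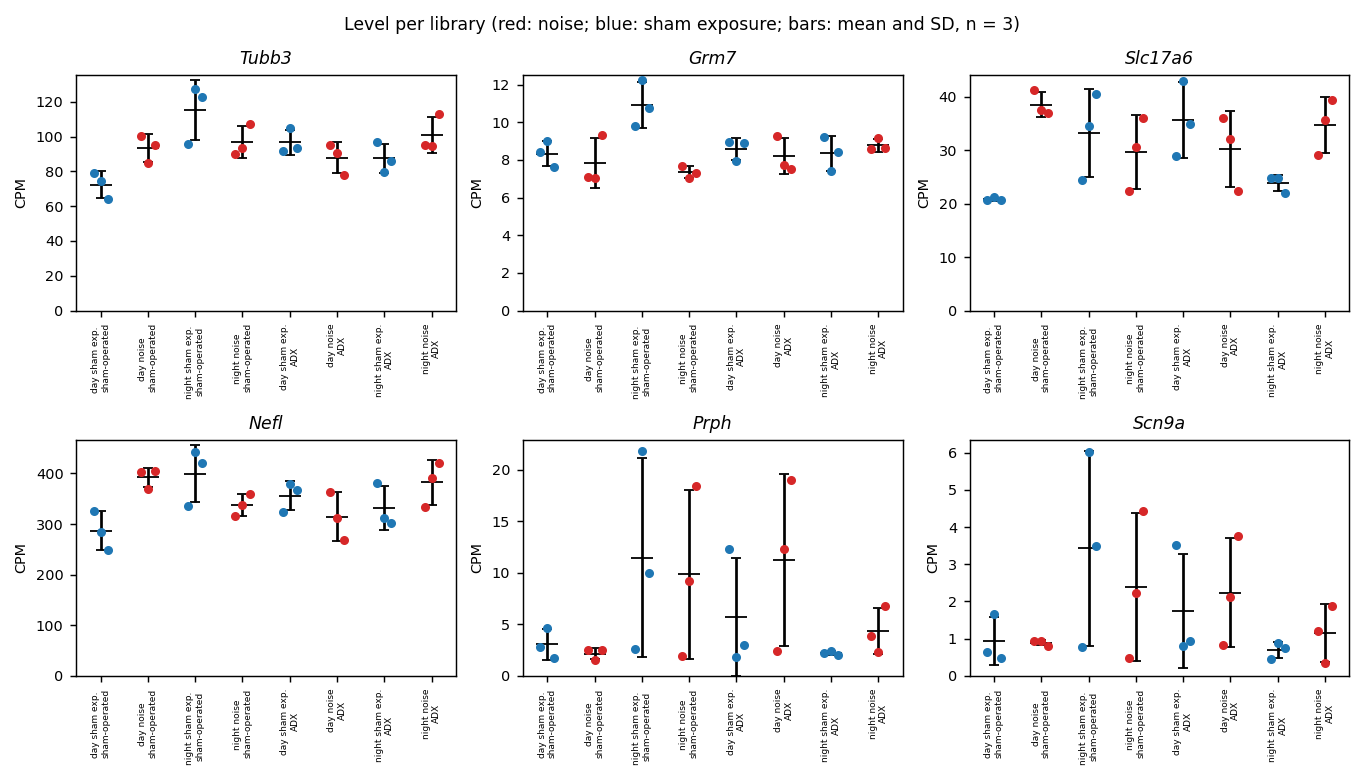
CPM of 6 members in each library, with group means and SD (n = 3); the CPM axes start at 0. Slc17a6 sits at 20.6 to 21.1 CPM in day unexposed sham-operated mice and between 36.9 and 41.1 CPM after day noise. Grm7 is highest in night unexposed sham-operated mice, and Prph and Scn9a are high in some but not all libraries of several groups.

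Each factor was also averaged over the other 2. For noise, 23 members lay above and 17 below zero, with a median of 0.03; edgeR called 0, against 4.81% of all genes, 2 had an unadjusted p under 0.05, against 18.7%, and DESeq2 called 0, against 7.2%. Between night and day Tubb3 passed (log2 change 0.19, SE 0.06, adjusted p = 0.0433), against 6.01% of all genes, as 1 member in DESeq2 did, against 8.78%; 3 members had an unadjusted p under 0.05, against 21.3%. That call of Tubb3 was kept in 9 of 24 fits that left out 1 library, with adjusted p from 0.0125 to 0.0878. Without the 2 libraries that held cerebellar transcripts its adjusted p was 0.0697. For ADX, 29 members lay below zero, with a median of -0.04; edgeR called 0, against 3.2%, 2 had an unadjusted p under 0.05, against 16.9%, and DESeq2 called 0, against 5.36%. In these averages the members' shares were at or below those of all genes.

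Prph, Scn9a and Gap43, and less closely Sncg, Uchl1 and Stmn2, varied with the genes of other sensory neurons. Prph (peripherin, a filament of small sensory neurons) was at 2.64, 21.8 and 10 CPM in night unexposed and 1.97, 9.20 and 18.4 CPM in night noise sham-operated libraries. In day noise ADX libraries it was at 2.39, 12.3 and 19 CPM, and in day unexposed ADX libraries at 12.3, 1.88 and 2.97 CPM. In the 4 other groups it was between 1.55 and 6.79 CPM. The 7 libraries with the most Prph are the 7 listed above for genes of other sensory neurons, so its values split within groups.

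Scn9a was at 0.77, 6.03 and 3.48 CPM in night unexposed sham-operated and 0.84, 2.13 and 3.75 CPM in day noise ADX libraries, high in the same libraries as Prph. Prph and Scn9a had r = 0.94 and rho = 0.843 over 24 libraries, whereas Prph and Nefl had r = 0.0635. With the mean of the 10 genes of other sensory neurons, r was 0.871 for Prph, 0.848 for Scn9a, 0.752 for Gap43 and 0.655 for Sncg (synuclein gamma, of sensory neurons), against -0.00136 for Nefl and -0.269 for Slc17a7. With the same list r was 0.546 for Uchl1, 0.542 for Stmn2, 0.338 for Syt1, 0.308 for Mapt and 0.299 for Tubb3. The mean of Prph and Scn9a had r = 0.873 and rho = 0.883 with that list, and r = 0.834 without the 2 farthest libraries. The 7 libraries were not alike in these genes. Scn10a, a sodium channel of pain-sensing neurons, was at 4.49 to 14.1 CPM in 4 of them but at 0.131, 0.299 and 0.657 CPM in night noise sham-operated b, day unexposed ADX a and night unexposed sham-operated b. Those 3 values lie below the 1.10 CPM of day unexposed sham-operated b, which is not among the 7. The same 3 libraries had the highest levels of P2rx3 (an ATP-gated channel of sensory neurons), at 12.8, 12.2 and 20.4 CPM, against 2.92 to 10.9 CPM in the other 21. Scn9a shares exon sequence with an antisense gene, Gm13629, so its reads are uncertain.

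**Figure D5:**
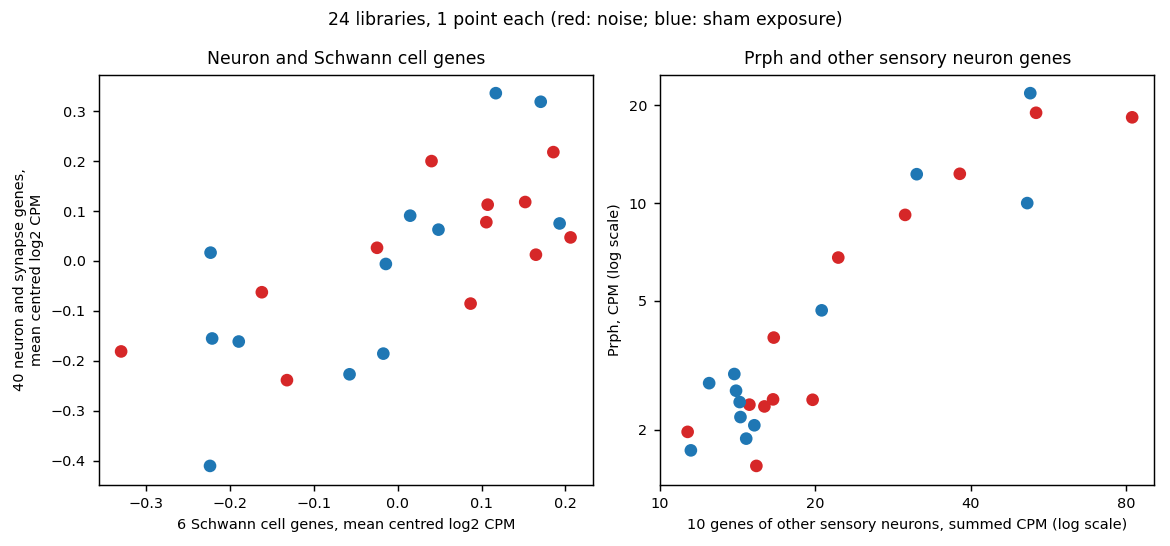
Left, the mean of the 40 members against the mean of 6 Schwann cell genes in 24 libraries (r = 0.71); right, Prph against the summed CPM of 10 genes of other sensory neurons, both on log axes. In the right panel 7 libraries lie at 29.9 CPM or more on the x axis, and in them Prph was between 9.20 and 21.8 CPM.

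Chl1, Syt1 and Gria2 had their 2 highest values in the 2 libraries that held cerebellar transcripts. Syt1 was at 33.6 and 33.5 CPM there against at most 26.9 CPM elsewhere, Gria2 at 30.9 and 28.5 CPM against at most 27.2 CPM, and Chl1 at 11.5 and 10.8 CPM against at most 8.53 CPM. Gria4 (an AMPA receptor subunit) was highest in day unexposed sham-operated b, at 43.3 CPM, but not in the second of these libraries. Neurofilaments, Slc17a6, Slc17a7 and Tubb3 lay within the range of the other libraries there: Nefl was at 285 and 338 CPM and Slc17a7 at 133 and 143 CPM. The part of cerebellar tissue in the levels of Chl1, Syt1 and Gria2 was not tested.

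Of 62 other neuronal genes in 5 lists, 60 were tested. Across libraries the means of 17 other genes of vesicle release and of 19 other genes of excitability and nodes followed the mean of the members, with r = 0.859 and r = 0.83. Between night and day in unexposed sham-operated mice 15 of 17 and 17 of 19 lay above zero (medians 0.28 and 0.31), and at night noise left 13 of 17 and 18 of 19 below zero (medians -0.12 and -0.23). In edgeR 0 passed in either comparison, against 0.265% and 0.717% of all genes. Between night and day 8 release and 12 excitability genes had an unadjusted p under 0.05, against 11.2% of all genes, and DESeq2 called 4 and 2, against 1.27%. For night noise 3 and 5 had an unadjusted p under 0.05, against 8.41%, and DESeq2 called 0 and 0, against 1.26%. Over all comparisons 4 of the 60 passed the edgeR test at least once. Cplx2 (complexin 2, a clamp on vesicle fusion) was higher in ADX mice by night (log2 change 0.73, SE 0.17, adjusted p = 0.0338; 1.58% of all genes passed) and in the ADX average (0.35, SE 0.08, adjusted p = 0.0244; 3.2% passed). Th (tyrosine hydroxylase, a marker of a subset of neurons) rose after day noise in ADX mice (log2 change 1.27, SE 0.35, adjusted p = 0.0434; 4.02% passed). Its level was low, at a mean log2 CPM of -0.037. Libraries b and c of that noise group are among the 7 richest in genes of other sensory neurons. Dlg4 (the main postsynaptic scaffold) and Prox1 (a transcription factor of spiral ganglion neurons) were higher in the night average, by 0.16 and 0.25 on the log2 scale (adjusted p = 0.0442 and 0.0475; 6.01% passed).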

How the data were processed

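The authors deposited 1 table of unnormalised read counts by gene symbol for 24 whole-cochlea libraries. Per the labels' protocols the libraries were stranded, made with poly-A selection and read as 50-base single reads. Per the submitters' processing notes the tools were TopHat2 2.0.11 and HTSeq 0.6p1 with build mm10; the annotation and the strand setting are not given in the sources used here. A spreadsheet had turned 27 names into dates (0.214% of counts); these were kept as unidentified entries. Totals ran from 18894996 to 36108962.

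Counts were fitted with edgeR 4.0.16 (R 4.3.3): filterByExpr on the 8 groups, TMM factors (0.974 to 1.02) and the robust quasi-likelihood test over all 24 libraries in 1 model, with Benjamini-Hochberg adjustment over 16607 genes and a threshold of 0.05. CPM use TMM-scaled totals; CPM per kb use the union of exons in GENCODE vM21 (GRCm38), which gave positions for all 40 members. The 13 comparisons share groups and are not independent. Alternatives were DESeq2 1.42.0, RLE factors, no filter, fits of only the groups compared, a block on the library letter, and leaving out libraries. The code was tested on simulated counts. Correlations over libraries are descriptions, given without p-values.

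The members, the lists and the rules were chosen with earlier results of these data known. Values per library are given for members past the threshold, for the member with the highest mean CPM in each role, and for a fixed set (Nefl, Snap25, Syt2, Tubb3, Slc17a6, Slc17a7, Pvalb, Calb2, Prph, Gria2 and Grm7); other members named were chosen after their values were seen. From each of the 5 lists of other neuronal genes, up to 3 genes past the threshold are named; Egr2, Drp2 and other marker genes were chosen after their values were seen. One gene of the Schwann cell list is not reported here, and that list was summarised without it.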

Additional observations from a re-analysis of the deposited data

How the results depend on the processing

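The count of members called was recomputed under each alternative, and the direction of Tubb3 and Grm7 was the same in all of them. Except for DESeq2, the share of all genes called in each refit is not given here. Counts from those refits do not set the members apart from other genes. RLE factors moved none of the counts. Without a filter on low counts, and with a replicate block on the library letter, the night average called 0 members. Whether the letters pair the libraries is not settled here. Same-letter deviations from group means had r between -0.271 and 0.41, with 20 of 84 pairs above 0.1. Different-letter deviations had r between -0.318 and 0.212, with 30 of 168 pairs above 0.1. Of 24 libraries, 16 correlated best with their own letter. The block changed no other count of called members. DESeq2 called 4 members for noise by day and 2 for noise at night in sham-operated mice, 7 between night and day in unexposed sham-operated mice, 2 and 1 for ADX by day and at night, and 3 for the noise by time interaction in sham-operated mice. Fits of only the groups compared called 1 (Slc17a6) for noise by day and 0 for noise at night in sham-operated mice, 1 (Syt1) for noise at night in ADX mice, 0 and 1 (Syt1) between night and day in unexposed sham-operated and ADX mice, and 2 (Sncg and Uchl1) for ADX by day.

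Without the 2 libraries that held cerebellar transcripts, noise at night in sham-operated mice and the night average called 0 members. Leaving out night noise ADX a as well, noise at night in sham-operated mice called 0 and the ADX average called 1 (Dpysl3), and the gene called in the night average was Dpysl3 in place of Tubb3. Without the 7 libraries highest in genes of other sensory neurons, which leaves 3 groups with 1 library assumed to vary as the others do, noise at night and the night comparison of unexposed sham-operated mice called 0. In that fit ADX by day called 1 (Slc17a6), the noise average 1 (Slc17a6) and the night average 2 (Slc17a6 and Sv2b, both lower), and the median of the members was -0.12 in the night average and 0.14 in the ADX average, against 0.05 and -0.04. Without night unexposed sham-operated b and c, noise at night in sham-operated mice, the night comparison of unexposed sham-operated mice and the night average called 0. These last 2 settings were chosen after the data were seen.

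Leaving out 1 library at a time, the count ran from 0 to 8 for noise by day in ADX mice (8 without day noise ADX a), 0 to 6 for night against day in unexposed sham-operated mice (6 without night unexposed sham-operated a), 0 to 2 for ADX at night (2 without night unexposed sham-operated a) and for the night average (2 without day noise ADX a, night noise ADX a or day unexposed sham-operated a), and 0 to 1 for noise by day and at night in sham-operated mice, the noise and ADX averages and the noise by time interaction in ADX mice. The median of the members kept its sign in each of these fits except in the noise average, where it ran from -0.0035 to 0.05; it ran from 0.03 to 0.09 in the night average and from -0.06 to -0.0031 in the ADX average. The cause of these shifts was not tested. With 3 libraries a group, adjusted p-values near 0.05 turn on single libraries.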
